A study of Mus musculus with 12 samples.

Results

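The periostin gene Postn and 9 other genes listed as matricellular, namely Tnc, Thbs1, Thbs2, Sparc, Ccn1, Ccn2, Tgfbi, Fbln2 and Fn1, were followed across 12 Affymetrix arrays. They were read by the 24 probe sets that the platform annotation gives to these symbols alone, among 45037 probe sets and 18193 named genes tested. A further probe set carries the names of both Thbs1 and another gene and was not used. The list of 10 genes spans several protein families and includes Fn1, whose product is a scaffold of the matrix. Postn was chosen by the wide gap between its values on the siRNA arrays, so its siRNA values are given as a description without a test. The members and the gene lists used below were chosen with earlier results of these data known.

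Matricellular proteins are secreted into the extracellular matrix but act mainly as signals, binding integrins and other receptors, growth factors and structural matrix proteins. In mesenchymal cells several of their genes respond to TGF-beta through SMAD factors, and to mechanical load through YAP with TEAD factors and through SRF. Periostin binds collagen and integrins and is abundant in periosteum, tendon, heart valves and healing wounds. Ccn1 and Ccn2 (older names Cyr61 and Ctgf) encode growth factor-binding proteins that are widely used as readouts of YAP.

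All arrays came from C3H10T1/2, an established mouse embryonic mesenchymal cell line. The 4 groups of 3 arrays were cells transfected with siRNA-140, used to raise the cartilage microRNA miR-140, cells transfected with siRNA-96 as its control, cells transfected with LNA-antimicroRNA-140 (here anti-miR-140), which blocks the endogenous microRNA, and cells transfected with LNA-antimicroRNA-449 (anti-miR-449) as its control. Each control acts on a microRNA of its own, so a difference joins an effect on miR-140 with one on miR-96 or miR-449. No label tells if the replicates came from separate cultures, so every p-value measures only the spread between these arrays, which may be technical.

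The values are log2 expression values, on which 1 unit is a 2-fold difference, and 3 values of a group are given in the order of replicates 1, 2 and 3. Array medians were 3.96 to 4.02 over the siRNA arrays and 4.32 to 4.38 over the anti-miR arrays, so levels are compared within an experiment, and across the experiments only side by side. The siRNA arrays did not group by label. Across probe sets, siRNA-140 replicate 3 and siRNA-96 replicate 2 were most like each other (r = 0.998). So were siRNA-96 replicate 1 and siRNA-140 replicate 1 (r = 0.995). The array nearest to siRNA-96 replicate 3 was siRNA-140 replicate 3, and that nearest to siRNA-140 replicate 2 was siRNA-140 replicate 1. Replicate 1 of both labels thus fell on 1 side and replicate 3 of both on the other, with replicate 2 divided by label. What the split follows was not tested. On their sides, siRNA-140 replicate 3 and siRNA-96 replicate 1 bore the less frequent label. These 2 are called the arrays labelled siRNA-140 replicate 3 and siRNA-96 replicate 1. The siRNA differences of the genes named below are given with and without them. Of the 9 fibroblast markers listed, Vim, Col1a1, Col1a2, S100a4, Prrx1, Pdgfrb and Twist1 read above the array median on all arrays, while Thy1 and Fap lay below it. Summed over the list, the markers read 15.31 to 15.41 with siRNA-140, 15.30 to 15.41 with siRNA-96, 15.56 to 15.62 with anti-miR-140 and 15.58 to 15.61 with anti-miR-449.

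Promoter sequences show what lies just before the start of the members that split the siRNA arrays most clearly. RefSeq (GRCm38.p6) gave promoters for 7 of the 10 genes, and those of Thbs1, Ccn2 and Fn1 were not used here. The 250 bases before a start of Postn (plus strand, chr3:54360857-54361106), Ccn1 (minus strand, chr3:145649986-145650235) and Tnc (minus strand, chr4:64046937-64047186) read 5′ to 3′ on the strand of the gene, with motif matches in capitals:
Postn: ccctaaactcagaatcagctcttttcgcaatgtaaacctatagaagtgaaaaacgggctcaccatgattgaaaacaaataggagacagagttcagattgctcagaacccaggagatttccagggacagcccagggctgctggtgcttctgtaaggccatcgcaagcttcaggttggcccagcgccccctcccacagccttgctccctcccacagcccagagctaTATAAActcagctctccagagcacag
Ccn1: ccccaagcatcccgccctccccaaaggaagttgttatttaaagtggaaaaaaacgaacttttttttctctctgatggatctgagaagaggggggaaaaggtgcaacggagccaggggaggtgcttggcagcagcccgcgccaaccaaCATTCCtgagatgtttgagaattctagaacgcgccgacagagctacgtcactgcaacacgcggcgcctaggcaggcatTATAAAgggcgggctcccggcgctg
Tnc: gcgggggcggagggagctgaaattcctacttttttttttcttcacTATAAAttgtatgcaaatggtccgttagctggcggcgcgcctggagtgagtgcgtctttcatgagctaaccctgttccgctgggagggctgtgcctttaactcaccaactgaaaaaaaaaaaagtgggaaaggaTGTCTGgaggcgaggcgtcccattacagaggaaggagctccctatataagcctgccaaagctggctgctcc
The motifs searched were the TEAD core CATTCC, the SMAD element CAGACA and the AP-1 site TGANTCA, each on both strands, the CArG box of SRF on both strands, and the TATA box TATAAA on the strand of the gene. The letters TATAAA begin 26 bases before the start of Postn and 25 before that of Ccn1, and 205 before this start of Tnc. They were found in 7.59% of the 32851 RefSeq promoter windows of this length. Only these exact letters were searched. The Tnc window also holds the close variant tatataag near its end, printed in lower case. The search thus does not tell if Tnc lacks a TATA box close to its start. Ccn1 also held the TEAD core, 103 bases before its start (12.6% of windows), and Tnc held a SMAD element on the other strand, printed as its reverse complement, 71 bases before its start (17.1% of windows). AP-1 sites (6.75% of windows) and CArG boxes (1.47%) were not matched in these 3 windows. The window before a further Postn start, upstream of this one, matched none of the motifs. The window before a further Tnc start, also upstream, held TATAAA 126 bases before that start and no SMAD element or other motif. Of the members not printed, Thbs2 held SMAD elements 67 and 44 bases before its start, and Sparc 36 bases before its own. The leading probe sets of Thbs2 and Sparc did not split the siRNA arrays as Postn did. A match is a description of the letters and not a measured binding site.

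Periostin, the secreted matrix protein of bone surfaces and wounds, showed the widest spread of the 10 genes. Postn (1423606_at) had log2 values of 6.61, 6.17 and 10.01 on the siRNA-140 arrays, against 6.23, 10.06 and 10.16 on the siRNA-96 arrays. The values fell into a low trio and a high trio with nothing between them, and each trio held arrays of both labels, so the labelled groups overlapped. Its range of 3.99 over the siRNA arrays, a 15.9-fold span, exceeded that of 99.97% of probe sets. Postn was chosen for this gap, so its rank here and among the 10 genes follows from the choice. In the anti-miR arrays Postn read 7.31, 7.24 and 7.12 with anti-miR-140, against 7.11, 7.19 and 7.23 with anti-miR-449, a range of only 0.20. These 6 values lay above every low siRNA array and below every high one, and this order also held after a further quantile normalization of all 12 arrays, which put the anti-miR arrays at 6.93 to 7.15 between siRNA arrays at 6.25 to 6.80 and at 10.19 to 10.34.

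As labelled, Postn averaged 7.60 ± 2.10 with siRNA-140 and 8.82 ± 2.24 with siRNA-96 (SD, n = 3 each), a log2 difference of -1.22. Without the arrays labelled siRNA-140 replicate 3 and siRNA-96 replicate 1, the difference was -3.72, or 13.2-fold lower with siRNA-140, from 2 arrays a group. Postn averaged 7.22 ± 0.10 with anti-miR-140 and 7.18 ± 0.06 with anti-miR-449 (SD, n = 3 each). That difference of 0.05 ± 0.08 (SE, interval -0.13 to 0.23) did not pass limma's test (adjusted p = 0.996). Set side by side across the experiments, the group mean of siRNA-96 came highest, then siRNA-140, anti-miR-140 and anti-miR-449. No neighbours in this order differed by more than the larger of their SDs. Both siRNA means and SDs mix arrays of the low and the high trio, so this order says little about the groups.

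**Figure D1:**
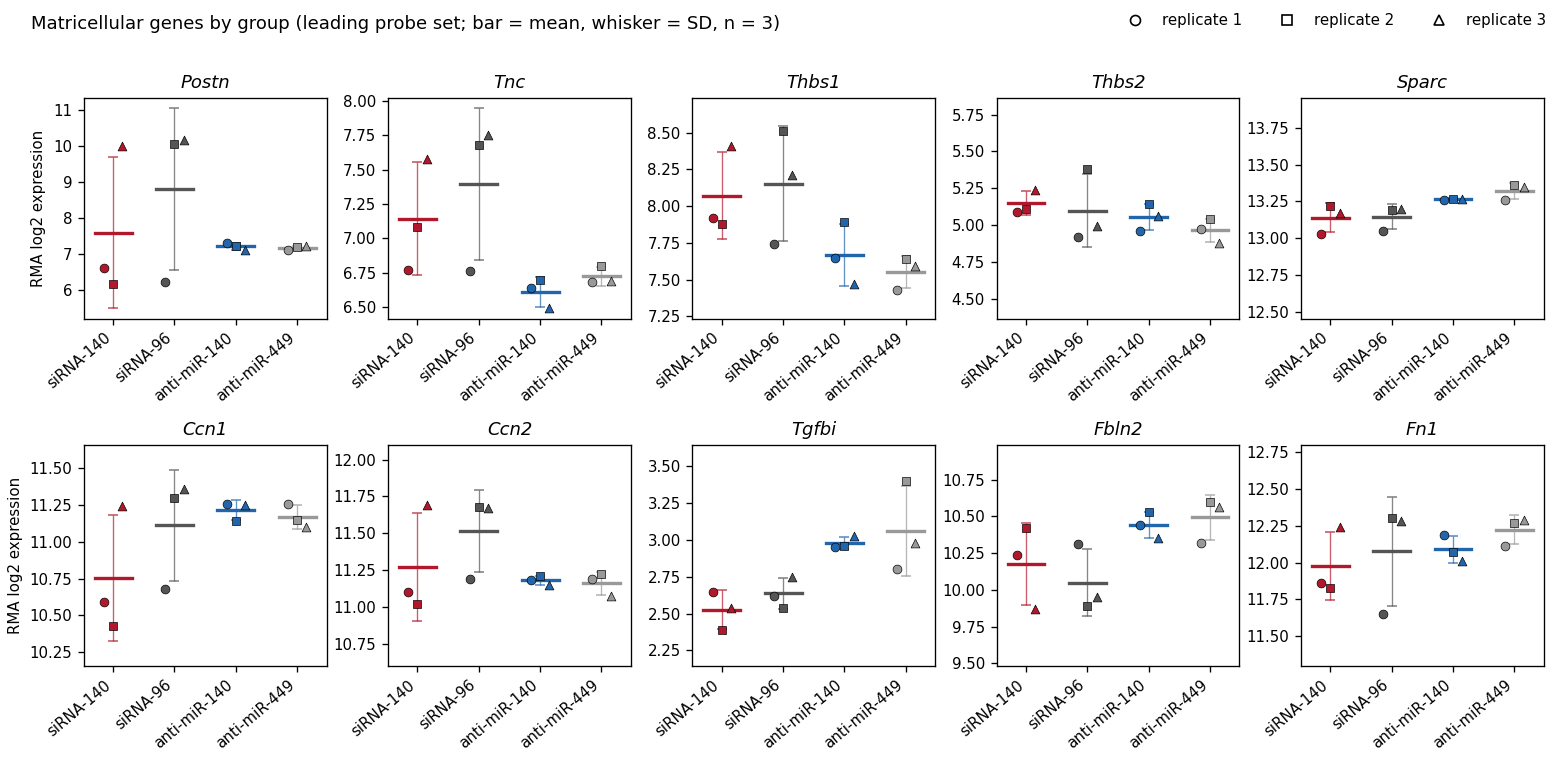
RMA log2 expression (vertical axis, its own scale in each panel) of the leading probe set of each of the 10 genes in the 4 groups. Points are arrays (circle, square and triangle for replicates 1, 2 and 3), bars the mean and whiskers the SD (n = 3). Postn splits the siRNA arrays into values of 6.17 to 6.61 and 10.01 to 10.16, while the anti-miR arrays lie at 7.11 to 7.31.

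Tenascin-C, a large adhesion-modulating glycoprotein of wounds and tendon, was next to periostin in spread among the leading probe sets, those with the highest mean of each gene. Tnc (1416342_at) had log2 values of 6.77, 7.08 and 7.58 on the siRNA-140 arrays, against 6.76, 7.68 and 7.75 on the siRNA-96 arrays. The same 3 arrays were low as for Postn. With anti-miR-140 it read 6.64, 6.70 and 6.49, against 6.68, 6.80 and 6.69 with anti-miR-449. The anti-miR values thus lay within or below the range of the low siRNA values rather than between the trios. The other Tnc probe set (1456344_at) read 2.12 to 2.76 over all arrays, below the median of its array each time, and showed no such split.

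The CCN genes gave unequal readings by probe set. Ccn1, whose product binds integrins and heparan sulfate, had log2 values at 1416039_x_at of 10.59, 10.43 and 11.24 on the siRNA-140 arrays, against 10.68, 11.30 and 11.36 on the siRNA-96 arrays. The probe set 1438133_a_at gave 10.72, 9.97 and 11.24 on the siRNA-140 arrays, against 10.42, 11.28 and 11.20 on the siRNA-96 arrays. Both put the same arrays low as Postn did. The probe sets 1442340_x_at and 1457823_at of the same gene stayed within 0.24 and 0.32 over the siRNA arrays, at 9.93 to 10.17 and 9.71 to 10.03, and did not separate the arrays that way, so the probe sets of Ccn1 disagree. Over the anti-miR arrays the leading Ccn1 probe set read 11.14 to 11.26 with anti-miR-140, against 11.10 to 11.26 with anti-miR-449.

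Ccn2, the connective tissue growth factor gene, had log2 values of 11.10, 11.02 and 11.69 on the siRNA-140 arrays, against 11.19, 11.68 and 11.67 on the siRNA-96 arrays. Its low and high trios were again those of Postn. With anti-miR-140 it read 11.15 to 11.21, against 11.07 to 11.22 with anti-miR-449, close to its low siRNA arrays in the values as deposited. After median centring the anti-miR arrays read 10.855 to 11.055, below the lowest siRNA array at 11.165. After further quantile normalization of all 12 arrays they read 10.92 to 11.08, below the lowest siRNA array at 11.11.

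Thrombospondin-1, an inhibitor of angiogenesis and an activator of latent TGF-beta, split less widely. Thbs1 (1460302_at) gave 7.92, 7.88 and 8.41 on the siRNA-140 arrays, against 7.74, 8.51 and 8.21 on the siRNA-96 arrays. At 1450377_at it gave 6.53, 6.84 and 7.01 on the siRNA-140 arrays, against 6.50, 7.28 and 6.94 on the siRNA-96 arrays. Both probe sets kept the arrays that were low for Postn below the others, by a narrower margin than Tnc did.

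Fibronectin, the integrin-binding scaffold on which other matrix proteins assemble, followed the same arrangement. Fn1 (1426642_at) gave 11.86, 11.83 and 12.24 on the siRNA-140 arrays, against 11.65, 12.30 and 12.28 on the siRNA-96 arrays. The dimmer Fn1 probe set (1437218_at) gave 7.86, 7.98 and 8.55 on the siRNA-140 arrays, against 7.69, 8.71 and 8.63 on the siRNA-96 arrays. That probe set also varied most of all member probe sets over the anti-miR arrays, with 8.23, 8.41 and 7.80 under anti-miR-140, against 8.17, 8.50 and 8.64 under anti-miR-449.

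Fibulin-2, a calcium-binding glycoprotein of basement membranes and elastic fibres, ran the other way. Fbln2 (1423407_a_at) gave 10.24, 10.42 and 9.87 on the siRNA-140 arrays, against 10.31, 9.89 and 9.95 on the siRNA-96 arrays, so the arrays low for Postn were the high ones here. Its dim probe set (1438375_at) had the same order, at 3.75, 4.01 and 3.56 on the siRNA-140 arrays, against 4.28, 3.68 and 3.53 on the siRNA-96 arrays.

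The remaining genes showed no such split at their leading probe sets. Sparc, which encodes the collagen-binding protein osteonectin, read 13.03 to 13.22 with siRNA-140, against 13.05 to 13.20 with siRNA-96, a range of only 0.19 at a bright probe set (1416589_at). Thbs2, the gene of the related thrombospondin-2, read 5.09 to 5.24 with siRNA-140 and 4.92 to 5.38 with siRNA-96 (1422571_at). At a second probe set each, the arrays low for Postn were lowest for Sparc too (1448392_at, 12.47, 12.43 and 12.61 on the siRNA-140 arrays, against 12.34, 12.56 and 12.70 on the siRNA-96 arrays) and for Thbs2 (1450663_at, 4.51 to 5.05 on the siRNA-140 arrays, against 4.84 to 5.07 on the siRNA-96 arrays). Their remaining probe sets did not follow. Sparc at 1458204_at gave 5.55, 5.62 and 5.26 on the siRNA-140 arrays, against 5.26, 5.34 and 5.33 on the siRNA-96 arrays, and the dim Thbs2 probe set 1447862_x_at gave 3.36 to 3.56 on the siRNA-140 arrays, against 3.17 to 3.46 on the siRNA-96 arrays. These probe sets, without the arrays labelled siRNA-140 replicate 3 and siRNA-96 replicate 1, differed by 0.25 and 0.145 (limma adjusted p = 0.477 and 0.785). Tgfbi encodes a TGF-beta-induced relative of periostin that shares its fasciclin domains. Its 4 probe sets read 1.93 to 2.73 with siRNA-140, 1.86 to 2.75 with siRNA-96, 2.54 to 3.03 with anti-miR-140 and 2.68 to 3.40 with anti-miR-449. All 4 lay below the median of their array on all 12 arrays, so little can be read from Tgfbi here. In all, 6 of the 24 probe sets lay that low: these 4 and the dimmest of Tnc and of Thbs2.

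Over the siRNA arrays, 2 of the 23 probe sets of genes other than Postn spanned at least 1 log2 unit (Ccn1 at 1438133_a_at and Fn1 at 1437218_at), or 8.7%, where 4.07% of all probe sets did. Over the anti-miR arrays 0 of all 24 did, where 0.144% of all probe sets did. The median range of the 23 was 0.46 over the siRNA arrays and 0.31 over the anti-miR arrays, against 0.43 and 0.31 for all probe sets.

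**Figure D2:**
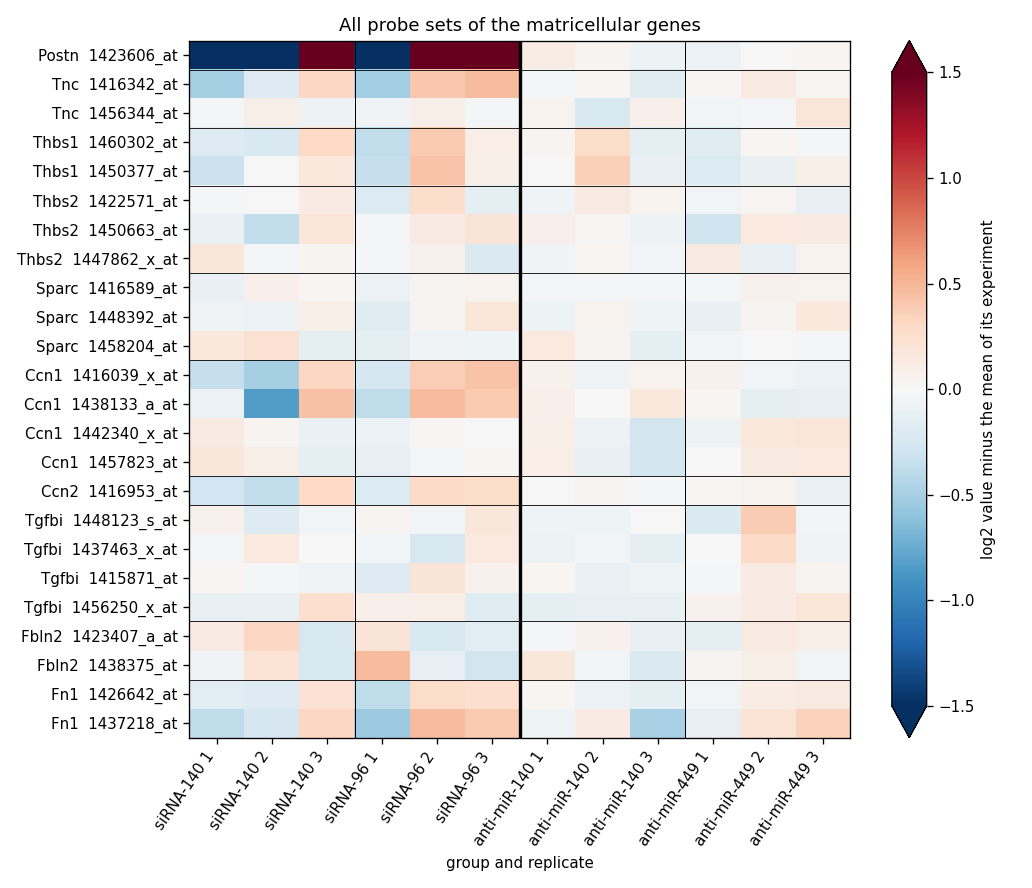
Log2 value minus the mean of its experiment (colour, full at 1.5 either way) for the 24 probe sets in rows and the 12 arrays in columns, with a thick line between the siRNA and anti-miR experiments. The arrays siRNA-140 replicates 1 and 2 and siRNA-96 replicate 1 are low for Postn, Ccn2 and Fn1 and high for Fbln2, and the lower pair of Ccn1 rows lacks the pattern of the upper pair.

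The comparison of siRNA-140 with siRNA-96 concerns transcripts that respond to added miR-140 or to the siRNA-96 control. As labelled, 0 of the 9 genes other than Postn and 0 of 45037 probe sets (0%) passed limma's test on the 6 siRNA arrays at an adjusted p under 0.05. At an unadjusted p under 0.05 there were 0 of their 23 probe sets, where 2.25% of all did. None of the 23 separated the labelled groups without overlap, where 6.1% of all probe sets did (2.6% lower and 3.5% higher). The leading Ccn1 probe set differed by -0.36 ± 0.25 (SE, 95% interval -0.92 to 0.20), Tnc by -0.25 ± 0.29 (interval -0.92 to 0.41) and Ccn2 by -0.24 ± 0.21 (interval -0.72 to 0.23). Fn1 differed by -0.10 ± 0.20, Thbs1 by -0.08 ± 0.22, Fbln2 by 0.13 ± 0.17, Thbs2 by 0.05 ± 0.14, Tgfbi by -0.11 ± 0.12 and Sparc by -0.01 ± 0.11. The narrowest interval was that of Sparc, -0.26 to 0.24. Over these 9 leading probe sets the median difference was -0.10, against 0.03 over all genes. Each of these adjusted p-values was 0.997. Leaving out single arrays moved the larger differences by more than 1.5 times. Tnc ran from -0.57 without siRNA-96 replicate 1 to -0.07 without siRNA-140 replicate 1, Ccn1 from -0.60 without siRNA-140 replicate 3 to -0.20 without siRNA-140 replicate 2, and Ccn2 from -0.45 without siRNA-140 replicate 3 to -0.12 without siRNA-140 replicate 2.

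Without the arrays labelled siRNA-140 replicate 3 and siRNA-96 replicate 1, 3 of the 9 genes other than Postn were called lower with siRNA-140 and 0 higher, where 2.39% of all genes at their leading probe set were called lower and 2.45% higher (of all probe sets 1.85% lower, 2.02% higher and 3.87% either way). The median over these 9 genes was -0.445, against 0.035 over all genes. Tnc differed by -0.79 ± 0.16 (limma adjusted p = 0.0194), Ccn1 by -0.82 ± 0.14 (adjusted p = 0.0110) and Ccn2 by -0.615 ± 0.14 (adjusted p = 0.0384). The second Ccn1 probe set gave -0.895 (adjusted p = 0.0494), while the other pair gave 0.085 and 0.13 (adjusted p = 0.872 and 0.781). Fn1 passed at its dimmer probe set (-0.75 ± 0.14, adjusted p = 0.0163) but not at its leading one (-0.445 ± 0.14, adjusted p = 0.131). Thbs1 at -0.46 (adjusted p = 0.162), Fbln2 at 0.41 (0.191), Sparc at -0.07 (0.903), Thbs2 at -0.085 (0.893) and Tgfbi at -0.125 (0.821) were not called. The 2 arrays were set aside for the same profiles that are then compared, leaving 2 arrays a group, so the calls cannot be set against the labels as a separate test. The 9 genes were also listed with earlier results of these data known, so their share beside that of all genes is a description.

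The comparison of anti-miR-140 with anti-miR-449 concerns transcripts that respond to a block of the cells' own miR-140 or to the anti-miR-449 control. No matricellular gene passed, nor did any of the 45037 probe sets (0%). The leading Tnc probe set differed by -0.11 ± 0.08 (SE, 95% interval -0.30 to 0.07), Thbs1 by 0.12 ± 0.11 (interval -0.14 to 0.38), Ccn1 by 0.05 ± 0.08 (interval -0.13 to 0.22), Ccn2 by 0.02 ± 0.07 (interval -0.15 to 0.19) and Fn1 by -0.13 ± 0.08 (interval -0.32 to 0.06). Of the 24 probe sets, 1 separated the groups without overlap, where 8.4% of all probe sets did (4.34% lower and 4.06% higher), and the same 1 had an unadjusted p under 0.05, where 4.77% of all did. It was a Tgfbi probe set near the floor of the arrays (1456250_x_at), at 2.54, 2.55 and 2.56 with anti-miR-140, against 2.74, 2.79 and 2.85 with anti-miR-449 (limma adjusted p = 0.974). The other 3 Tgfbi probe sets did not separate the groups. The intervals of the leading probe sets were narrower here than with siRNA for all of the 9 genes other than Postn but Tgfbi, whose anti-miR interval ran from -0.40 to 0.24.

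**Figure D3:**
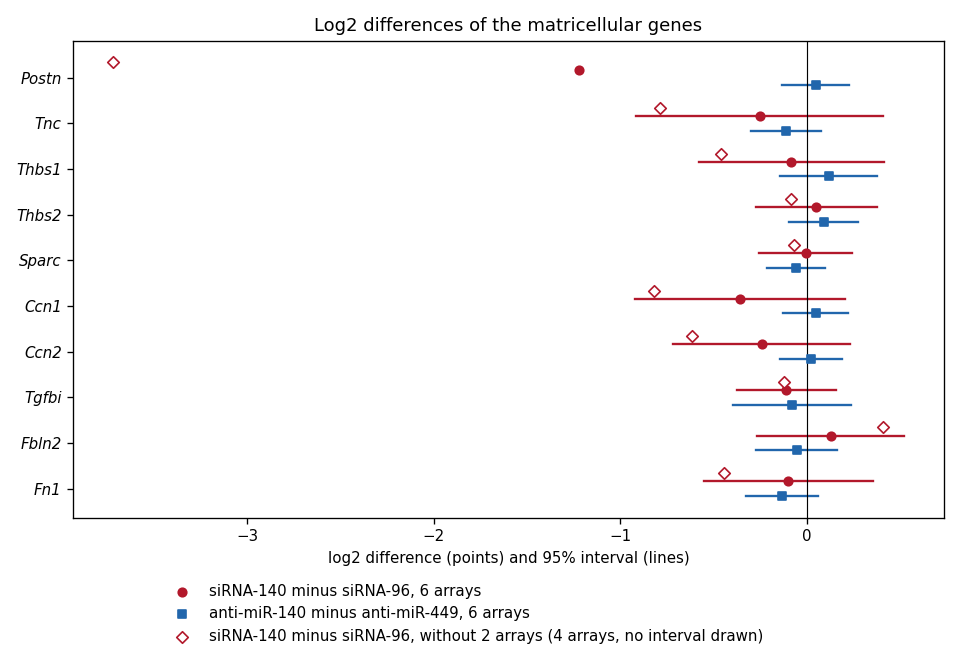
Log2 difference (horizontal axis) of the 10 genes at their leading probe sets, as points with 95% intervals from limma on 6 arrays: circles siRNA-140 minus siRNA-96, squares anti-miR-140 minus anti-miR-449, with no interval for Postn in the siRNA comparison. Open diamonds give siRNA-140 minus siRNA-96 without the arrays labelled siRNA-140 replicate 3 and siRNA-96 replicate 1, at -3.72 for Postn and 0.41 for Fbln2. Every interval drawn includes 0.

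The genes whose profile was most like that of Postn were sought among 18183 other named genes, by the root mean square difference over the 12 arrays after the mean of each experiment was taken off. Nrep, a neuronal regeneration related gene, came first (0.29), then the interferon-inducible genes Rtp4 (0.35), Igtp (0.39) and Irgm2 (0.40), and Wfdc18 (0.41), where a flat profile would give 1.33. Nrep had log2 values of 4.11, 3.90 and 6.78 on the siRNA-140 arrays, against 3.72, 6.93 and 6.92 on the siRNA-96 arrays. Those arrays were low and high as for Postn, which follows from the choice by likeness. With the sign of Postn turned, the nearest were Dynap (0.25), Mal (0.28), Slurp1 (0.45), Vnn1 (0.47) and Msln (0.49). Of the matricellular genes themselves, the nearest were the Ccn1 probe set 1438133_a_at (1.02) and Tnc (1.05).

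**Figure D4:**
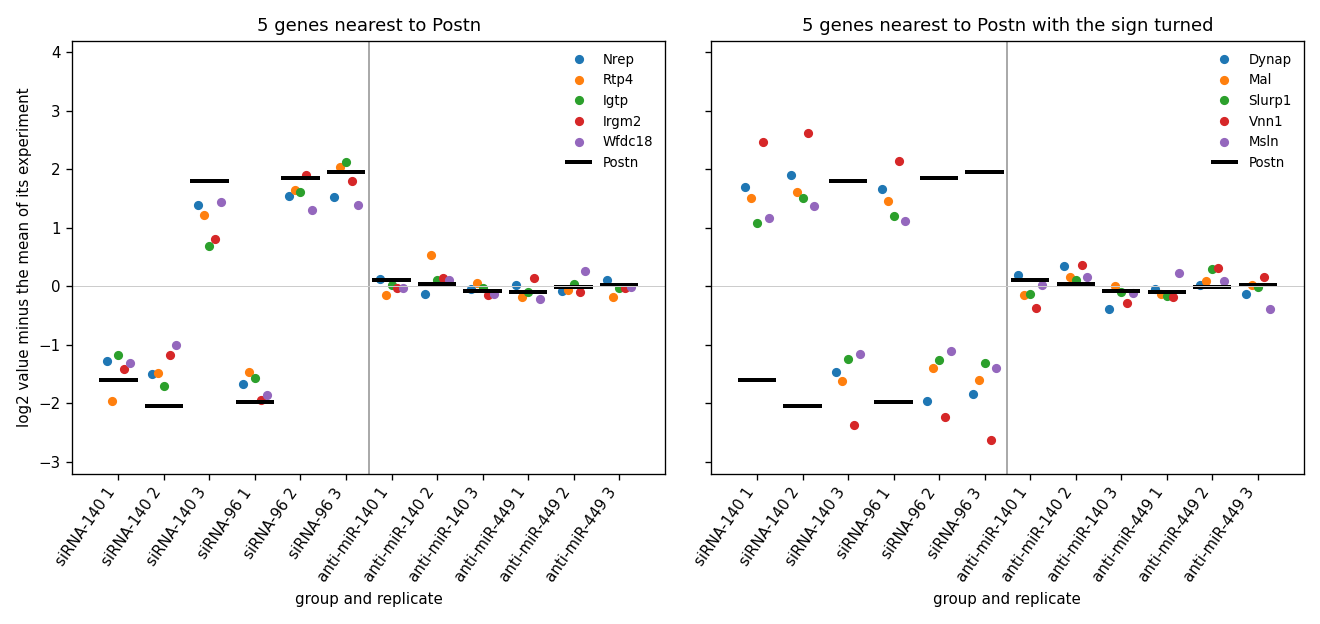
Log2 value minus the mean of its experiment (vertical axis) on each of the 12 arrays for Postn (black bars) and the 5 genes nearest to it (left, coloured points) or nearest to its profile with the sign turned (right). Nrep, Rtp4, Igtp, Irgm2 and Wfdc18 are low in the siRNA arrays where Postn is low, Dynap, Mal, Slurp1, Vnn1 and Msln are high there, and each of the 10 varies less over the anti-miR arrays (ranges of 0.20 to 0.74) than over the siRNA arrays (2.77 to 5.24). The 10 were chosen for likeness to Postn over these arrays, so these traits follow from the choice.

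Markers of other states were read beside this split. Interferon response genes other than Mx1 moved with it: the summed log2 level (8 of 10 listed genes measured) came to 7.52, 7.90 and 10.21 on the siRNA-140 arrays, against 7.88, 11.43 and 12.10 on the siRNA-96 arrays. Unlike Postn, these genes were lower on siRNA-140 replicate 3 than on the other arrays of the high trio. The dim Mx1 read 2.38, 2.37 and 2.53 on the siRNA-140 arrays, against 2.61, 3.75 and 3.74 on the siRNA-96 arrays. In the anti-miR arrays the sum was at most 7.57 with anti-miR-140, against 6.95 to 7.18 with anti-miR-449. With the arrays labelled siRNA-140 replicate 3 and siRNA-96 replicate 1 left out, all 8 of these genes were called lower with siRNA-140 by limma, with a median of -4.00, while as labelled none was called (median -1.88). Of all genes, 2.39% were then called lower and 2.45% higher. The 2 arrays were set aside for profiles that include these genes, so such calls are no separate test of siRNA-140. The part of the interferon genes in the Postn split was not tested. Summed fibroblast markers were also lowest on the arrays low for Postn, at 15.33, 15.31 and 15.41 on the siRNA-140 arrays, against 15.30, 15.41 and 15.41 on the siRNA-96 arrays. The markers differed among themselves. Col1a1, Col1a2 and Pdgfrb had that order, Prrx1, S100a4 and the dim Fap had the opposite one, and Vim, Twist1 and Thy1 had neither. None of the 9 was called without the same pair of arrays (smallest limma adjusted p = 0.475). Summed endothelial markers were highest on the arrays low for Postn, at 6.43, 6.35 and 6.24 on the siRNA-140 arrays, against 6.30, 6.25 and 6.13 on the siRNA-96 arrays. Of the 7 endothelial genes 4, Pecam1 and Cdh5 among them, lay below the array median on all arrays, and 1, Tek, was called higher without the same pair of arrays (0.60, limma adjusted p = 0.0495, against 0.39 as labelled), named here after its values were seen. Neither the epithelial sum (7.07 to 7.18 under siRNA-140, 7.03 to 7.32 under siRNA-96) nor the macrophage sum (6.87 to 7.01 under siRNA-140, 7.04 to 7.11 under siRNA-96) ordered the arrays as Postn did. Of these lists 6 of 9 epithelial and 4 of 7 macrophage genes, with Krt18 and Ptprc, lay below the array median on all arrays. Their part in the Postn split was not tested.

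Genes of the wider matricellular family were read from a list of 26, of which 24 were measured, and 11 of these lay below the array median on all 12 arrays. Ccn3, the gene of another CCN protein, had log2 values of 8.46, 8.34 and 9.65 on the siRNA-140 arrays, against 8.38, 9.70 and 9.80 on the siRNA-96 arrays. Fbln5, which encodes an elastic fibre fibulin, gave 10.75, 10.83 and 11.73 on the siRNA-140 arrays, against 10.81, 11.75 and 11.77 on the siRNA-96 arrays. Both had the arrangement of Postn, and with anti-miR both lay between the trios, at 9.14 to 9.37 and at 11.38 to 11.62. As labelled 0 of the 24 passed limma's test, with a median difference of -0.02 and with -0.48 for Ccn3, -0.34 for Fbln5, -0.32 for Fbln7 and -0.27 for Smoc1. Without the arrays labelled siRNA-140 replicate 3 and siRNA-96 replicate 1, 3 were called lower with siRNA-140 and 0 higher, where 2.39% of all genes were called lower and 2.45% higher. They were Ccn3 (-1.35 ± 0.14, limma adjusted p = 0.000608), Fbln5 (-0.97 ± 0.14, adjusted p = 0.00390) and the dim Fbln7 (-0.95 ± 0.22, adjusted p = 0.0382). Smoc1, a gene of the Sparc family, gave -0.50 (adjusted p = 0.209). The arrays left out were set aside for profiles that include these genes, so these calls are no separate test of siRNA-140. The same holds for the lists below.

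Receptors of these proteins differed in direction among themselves. The integrin gene Itgb8, whose product with the alpha-v subunit activates latent TGF-beta, gave 3.63, 3.27 and 5.69 on the siRNA-140 arrays, against 3.16, 5.65 and 5.54 on the siRNA-96 arrays. Itgav, the gene of the alpha-v subunit, gave 10.74, 10.50 and 9.93 on the siRNA-140 arrays, against 10.56, 9.91 and 9.93 on the siRNA-96 arrays. Itgb8 was low and Itgav high in the arrays where Postn was low. As labelled 0 of 17 receptor genes passed (median 0.02), with differences of -0.59 for Itgb8, 0.26 for Itgav, 0.30 for Itgb1, 0.26 for Lrp1 and 0.02 for Itgb6. Without the arrays labelled siRNA-140 replicate 3 and siRNA-96 replicate 1, Itgb8 was called lower (-2.145 ± 0.16, limma adjusted p = 6.32e-05), while Itgav (0.70, adjusted p = 0.0280), Itgb1 (0.63, adjusted p = 0.0435) and the endocytic receptor gene Lrp1 (0.60, adjusted p = 0.0452) were called higher. That is 1 of 17 lower and 3 of 17 higher, where 2.39% of all genes were lower and 2.45% higher. Lrp1 is named here after its values were seen. Itgb6 gave 0.335 (adjusted p = 0.366). With arrays left out by their profiles, the receptor calls too are no separate test of siRNA-140.

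Among TGF-beta pathway genes, the ligand gene Tgfb2 had the largest siRNA range. Tgfb2 gave 5.75, 5.61 and 7.68 on the siRNA-140 arrays, against 5.12, 7.71 and 7.40 on the siRNA-96 arrays, and 6.61 to 6.76 with anti-miR-140, against 6.37 to 6.68 with anti-miR-449. The low and high trios were those of Postn, with the anti-miR arrays again in the gap. As labelled 0 of 13 genes passed (median 0.04), with differences of -0.40 for Tgfb2, -0.31 for Tgfb3, 0.37 for Tgfbr2 and -0.10 for Smad3. Without the arrays labelled siRNA-140 replicate 3 and siRNA-96 replicate 1, Tgfb2 (-1.875 ± 0.16, limma adjusted p = 0.000135) and Tgfb3 (-0.925 ± 0.14, adjusted p = 0.00580) were called lower and the receptor gene Tgfbr2 (0.75, adjusted p = 0.0202) higher, and Smad3 gave -0.51 (adjusted p = 0.0868). That is 2 of 13 lower and 1 of 13 higher, against the same 2.39% and 2.45% of all genes. These calls again rest on arrays left out by their profiles and are no separate test of siRNA-140.

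Of 16 listed YAP, TEAD and SRF factors and targets, 0 passed as labelled (median -0.00667), with differences of 0.64 for Tead4, -0.12 for Ajuba, -0.25 for Acta2 and -0.05 for Tagln. Tead4, a DNA-binding partner of YAP, gave 6.32, 6.83 and 5.41 on the siRNA-140 arrays, against 6.31, 5.21 and 5.12 on the siRNA-96 arrays, so the trio low for Postn was the high one. Without the same pair of arrays Tead4 was called higher (1.41 ± 0.18, limma adjusted p = 0.00181), while the LIM protein gene Ajuba (-0.77, adjusted p = 0.0203) and the smooth muscle actin gene Acta2 (-0.865, adjusted p = 0.00718) were called lower. Tagln, the gene of a smooth muscle actin-binding protein, gave -0.58 (adjusted p = 0.0607). The counts, 2 of 16 lower and 1 of 16 higher, stand against 2.39% and 2.45% of all genes. They too follow a choice of arrays by profile and are no separate test of siRNA-140.

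Collagens and matrix partners, 14 measured of 16 listed, had 0 members past the test as labelled (median -0.01), with differences of -0.28 for Col3a1, -0.61 for Eln, -0.01 for Col12a1 and -0.08 for Loxl1. Col3a1, the fibrillar collagen gene of healing tissue, gave 11.40, 11.43 and 12.52 on the siRNA-140 arrays, against 11.12, 12.54 and 12.53 on the siRNA-96 arrays. Without the same pair of arrays, Col3a1 (-1.12 ± 0.14, limma adjusted p = 0.00153) and the elastin gene Eln (-1.245 ± 0.14, adjusted p = 0.00103) were called lower and 0 of the 14 higher, where 2.39% of all genes were lower and 2.45% higher. Col12a1 gave -0.23 (adjusted p = 0.662) and the crosslinking enzyme gene Loxl1 -0.375 (adjusted p = 0.223). As for the other lists, calls made after this choice of arrays are no separate test of siRNA-140. With anti-miR-140 against anti-miR-449, 0 genes of any of these 5 lists passed, with medians of -0.04 for other matricellular genes, -0.05 for receptors, -0.00333 for TGF-beta genes, 0.00333 for YAP, TEAD and SRF genes and -0.06 for matrix partners, where the median of all genes was -0.00333.

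**Figure D5:**
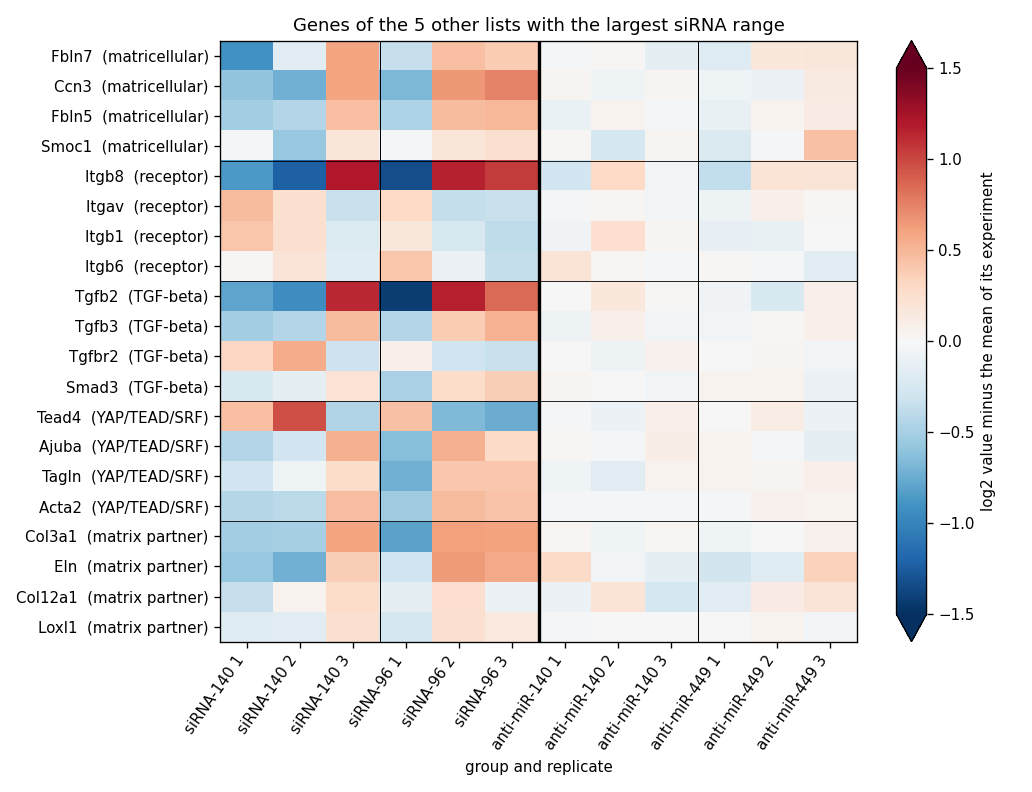
Log2 value minus the mean of its experiment (colour) for the 4 genes with the largest siRNA range in each of the 5 lists, in rows, over the 12 arrays in columns. Ccn3, Fbln5, Itgb8, Tgfb2, Tgfb3, Acta2 and Col3a1 are low in siRNA-140 replicates 1 and 2 and siRNA-96 replicate 1, while Itgav, Tgfbr2 and Tead4 are high there.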

How the data were processed

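Expression in 12 samples was deposited as log2 values made by the authors with RMA, per the submitters' processing notes, which background-corrects, normalizes and summarises probe sets. The RMA version, and whether both experiments were normalized together, are not given in the sources used here. Per the labels, total RNA was extracted with RNeasy and carried a biotin label. Of 45101 probe sets, 64 array controls were left out, with no filter on level. Symbols came from the platform annotation: 34945 probe sets had 1 symbol, 932 several and 9160 none. RefSeq (GRCm38.p6) matched 34741 of the first by gene ID and changed 0 symbols.

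Fits were made per probe set with limma 3.58.1 (R 4.3.3) within its own experiment, as 2 group means over 6 arrays with eBayes variances, and Benjamini-Hochberg adjustment over 45037 probe sets. The fits were tested on simulated data. The number of arrays limits the precision. Genes named were the members, the 5 nearest each way to Postn, and up to 4 of each list with the largest siRNA range, plus Lrp1 and Tek, named after their values were seen. Summed marker levels are log2 of the sum of linear values. The members and lists were chosen with earlier results of these data known. Alternatives were all 12 arrays in 1 fit, a replicate block, further quantile normalization, median centring, a level filter, another variance model, the mean of a gene's probe sets, and arrays left out.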

Additional observations from a re-analysis of the deposited data

How the results depend on the processing

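The counts called, of probe sets and of member genes (other than Postn in the siRNA comparison), 0 in both comparisons as labelled, were 0 under each alternative run on all 6 arrays of a comparison or on all 12, and without each array in turn (0 to 0). Without the arrays labelled siRNA-140 replicate 3 and siRNA-96 replicate 1 they were 1743 and 3 (Tnc, Ccn1 and Ccn2). The replicate block gave 0 calls in each comparison, with -0.25 ± 0.15 for Tnc in the siRNA comparison, and changed no call. Replicate numbers were not taken to pair the samples in the main fits. Deviations of same-numbered arrays from their group means correlated at 0.41, -0.24 and 0.44 with siRNA and at -0.01, 0.10 and -0.03 with anti-miR. With siRNA, replicates 1 and 3 were thus alike across the labels and replicate 2 was not. These values do not decide if the siRNA replicates were paired. The filter on level left no Tgfbi value. The number of member genes with a siRNA range of at least 1, which is 1 (Postn, chosen for it), became 2 after quantile normalization of all 12 arrays, with Tnc added to Postn. Postn averaged 7.05 with anti-miR-140 and 6.99 with anti-miR-449 after median centring, and 7.05 and 7.02 after that quantile normalization. Small differences changed sign in some settings, none of them called. With the mean of a gene's probe sets, Thbs2 gave -0.00778 and Sparc 0.0433 with siRNA, and Ccn1 -0.0392 with anti-miR. After further quantile normalization, Ccn2 gave -0.00556 with anti-miR. Without the pair of siRNA arrays, Thbs2 gave -0.085. With each array left out, the siRNA difference ran from -2.51 to -0.51 for Postn, -0.57 to -0.07 for Tnc, -0.60 to -0.20 for Ccn1, -0.45 to -0.12 for Ccn2, -0.29 to 0.10 for Thbs1, -0.0383 to 0.19 for Thbs2, -0.055 to 0.0483 for Sparc and -0.31 to 0.0117 for Fn1, and the anti-miR difference from -0.025 to 0.05 for Ccn2 and -0.21 to 0.09 for Tgfbi. For Postn, the difference was -2.43 when siRNA-140 replicate 3 was left out, -2.51 when siRNA-96 replicate 1 was, and -0.73 to -0.51 without any other array. The cause of these moves was not tested.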
